A study of Mus musculus with 8 samples.

Results

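The genes described here are 9 secreted regulators of bone morphogenetic protein (BMP) signalling: the ligands Bmp2, Bmp4, Bmp6 and Bmp7, the protease Bmp1, and the antagonists Grem1, Nog, Chrd and Fst. They were taken by their names in the scanner files, with every non-control probe of each name, which gave 12 probes for 9 of the 27962 gene names on the array. Messenger RNA was read from co-cultures of mouse MC3T3-E1 osteoblasts with tumour cells. The tumour cells overexpressed Jagged1, a ligand of Notch receptors, or carried the control vector. MRK-003, which blocks gamma-secretase and so the cleavage that activates Notch, or its solvent DMSO was added. The 4 groups, vector DMSO and vector MRK-003 with control cells, Jagged1 DMSO and Jagged1 MRK-003 with overexpressing cells, had 2 biological replicates each on 8 arrays. The tumour line, its species, and the dose and time of MRK-003 are not stated in what was used here. Whether the cell types were parted before RNA extraction is not stated either, and the osteoblasts are 1 cell line. Every level below is log2 of the co-culture signal (Cy3) over that of a commercial mouse reference RNA (Cy5) on the same array, so a level of 0 means equal signals after normalization, and a difference is between such levels.

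BMPs are secreted dimers of the TGF-beta superfamily that bind pairs of type I and type II serine/threonine kinase receptors, which phosphorylate Smad1, Smad5 and Smad9. The phosphorylated Smads enter the nucleus with Smad4 and raise genes such as those of the Id family, and in bone the pathway drives mesenchymal cells towards osteoblasts. Gremlin 1, noggin and chordin bind BMPs outside the cell and keep them from their receptors, while follistatin binds mainly activins and also some BMPs. Bmp1 carries the family's name but is no ligand: it is an astacin metalloprotease that trims the C-terminal propeptides of fibrillar procollagens and cleaves chordin, which frees the BMPs held by it.

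Bmp1 was read by a pair of probes on chromosome 14 (build mm7, minus strand, as the files give it), the first, A_51_P488646, at chr14:65119229-65119288, and the second A_52_P299921. The array lists the first against the RefSeq transcript and the second against a separate full-length cDNA, so they need not read the same transcripts. The Bmp4 probe, at chr14:41704207-41704266 on the minus strand, is printed because 10 spots per array carry it, which gives its level on each array a spread of its own.
Bmp4 A_51_P383741: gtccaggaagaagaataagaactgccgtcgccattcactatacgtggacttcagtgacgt

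Promoters were looked up for the members in a RefSeq table on GRCm38.p6, and 4 of the 9 genes matched: Bmp4, Bmp6, Grem1 and Chrd. The 250 bases upstream of the start are printed for Bmp4 and Grem1, the matched genes that passed a test below with the replicate number as a block. The Bmp4 stretch is chr14:46390670-46390919 and that of Grem1 chr2:113758649-113758898, both on the minus strand, and capitals mark the GC box GGGCGG on either strand.
Bmp4 upstream: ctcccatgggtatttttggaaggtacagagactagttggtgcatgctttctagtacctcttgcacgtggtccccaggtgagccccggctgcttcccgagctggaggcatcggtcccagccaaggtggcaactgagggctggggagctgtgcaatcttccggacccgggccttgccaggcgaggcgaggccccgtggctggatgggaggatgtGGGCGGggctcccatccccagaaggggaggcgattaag
Grem1 upstream: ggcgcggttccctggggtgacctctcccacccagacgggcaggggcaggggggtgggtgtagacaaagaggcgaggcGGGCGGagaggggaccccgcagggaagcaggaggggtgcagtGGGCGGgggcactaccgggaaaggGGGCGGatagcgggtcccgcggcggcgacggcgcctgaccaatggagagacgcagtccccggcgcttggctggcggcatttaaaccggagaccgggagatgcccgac

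The GC box stood once in the Bmp4 stretch, 3 times in that of Grem1, once in that of Bmp6 and 4 times in that of Chrd. It occurred in 32.7% of 32851 promoters of the same length. The letters TGGGAA, the core of the site bound by the Notch effector RBPJ, and TATAAA were searched on both strands too. Neither was in the stretches of these 4 members, against 21.6% and 12.4% of all promoters. The upstream stretches were 63.2% G or C for Bmp4, 68.8% for Bmp6, 72.0% for Grem1 and 78.0% for Chrd, against a median of 52.4%. A missing motif says only that these letters are not in this window.

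The median Cy3 signal ran from 165 to 204 on the replicate 1 arrays and from 76.5 to 117 on the replicate 2 arrays, and all arrays of 1 replicate number lay on 1 slide. The share of spots with Cy3 well above background was 86.0% to 89.4% on the first slide and 71.4% to 78.6% on the second. Mouse Jag1, which checks the labels only if the tumour cells' transcript binds a mouse probe, was higher with Jagged1 cells in DMSO by 1.26 ± 0.12 (log2, SE, n = 2 per group, limma adjusted p = 0.0230). In MRK-003 Jag1 differed by 0.12 ± 0.12 between Jagged1 and vector cells (adjusted p = 1.00), and it fell by 1.28 ± 0.12 under MRK-003 with Jagged1 cells (adjusted p = 0.0108). This probe therefore gives no check of the Jagged1 label on the MRK-003 arrays. Whether its rise in DMSO comes from the tumour cells or the osteoblasts was not tested. Hey1, a direct Notch target, was higher with Jagged1 cells in DMSO by 3.76 ± 0.17 (adjusted p = 0.00340). It fell by 5.29 ± 0.17 under MRK-003 with Jagged1 cells (adjusted p = 0.000537). Of 12 osteoblast markers 11 were well above background on every array. Col1a1, Col1a2, Spp1 and Sparc had saturated spots on at least 1 array, and the mean level of the other 8 ran from -0.14 to 0.59 per array. Among 10 measured epithelial markers Krt18 was saturated in the reference on 7 arrays and Krt8 on 1, and the mean level of the other 8 ran from -2.03 to -1.66. Each of the 10 measured epithelial markers was well above background on every array. Of the 14 listed, those not measured were Cdh1, well above background on 2 of 8 arrays, Cldn4 on 4, and Esrp1 and Ocln on 0. All 10 measured epithelial markers had positive differences with Jagged1 cells in DMSO, with a median of 0.18, and none passed the test. All 10 had negative differences under MRK-003 with Jagged1 cells, with a median of -0.14, and none passed, with or without the block in either comparison. The differences of Bmp1 had the same signs in both comparisons, and the part of these markers' cells in its result was not tested. No osteoblast, macrophage, chondrocyte, adipocyte or endothelial marker passed in any comparison without the replicate number as a block in the fit. Of these, Col1a1 was saturated in Cy3 on 7 arrays, Col1a2 in Cy3 on 8 and Spp1 in the reference on 8. Because of that saturation the tests of Col1a1, Col1a2 and Spp1, with or without the block, cannot decide whether they differed. With the block, under MRK-003 with Jagged1 cells, 3 of 12 osteoblast markers (Runx2, Alpl and Bglap) were higher by their brightest probes in Cy3. Of 6 measured chondrocyte markers 2 (Sox9 and Col11a1) were higher and 1 (Col2a1) was lower. In that comparison 8.74% of all probes passed with the block. The other Runx2 probes differed by 0.77, 0.42 and -0.01 and did not pass with the block (limma adjusted p = 0.0549, 0.0519 and 0.979). In the average MRK-003 effect the same 5 markers were higher, and Dmp1, an osteoblast marker, and Col2a1 were lower, against 7.93% of all probes. There the other Runx2 probes differed by 0.61, 0.25 and 0.04, and only the first passed with the block (adjusted p = 0.0407, 0.0864 and 0.890). With Jagged1 cells in DMSO Alpl and Col11a1 were lower, against 3.04%, and Alpl alone of the markers passed for the interaction, against 0.268%. No macrophage, adipocyte or endothelial marker passed with the block. The part of these markers' cells in the members' results was not tested. In co-culture RNA, fewer cells of a type and less RNA per cell cannot be told apart.

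**Figure D1:**
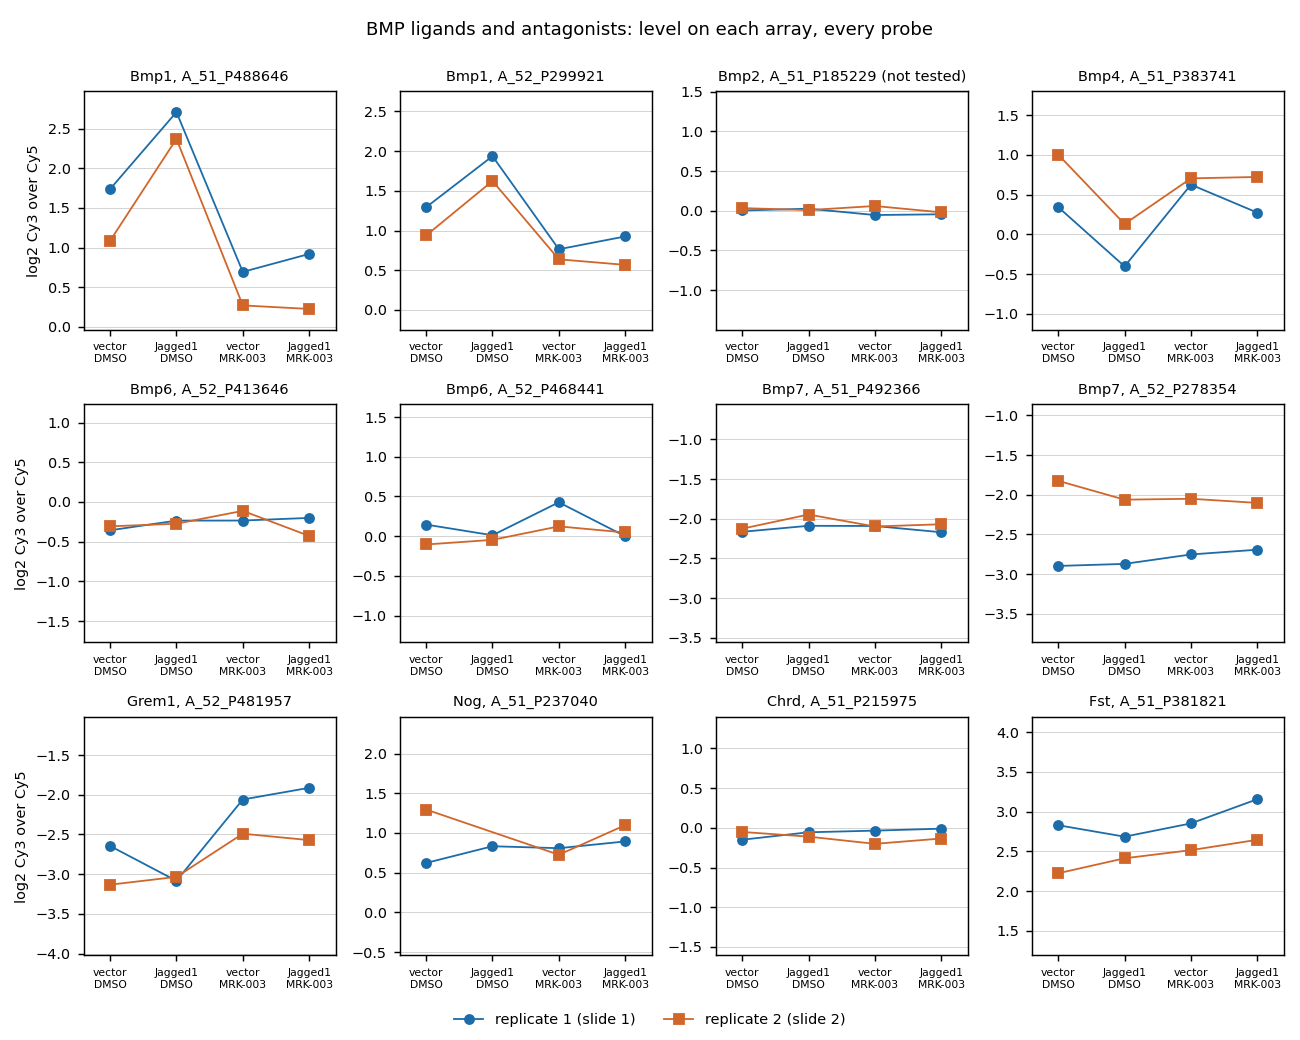
Level (log2 Cy3 over Cy5, vertical axis) of each of the 12 member probes in the 4 groups (horizontal axis); circles are replicate 1 arrays and squares replicate 2 arrays, lines join arrays of 1 slide, and the axes differ in centre but not in span. Both Bmp1 probes peak in Jagged1 DMSO on both slides, Bmp4 is lowest there, Grem1 is higher in both MRK-003 groups, and 1 Nog spot was flagged and is missing.

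Of the tested members Bmp1 had the widest range of group means. Its first probe stood highest with Jagged1 cells in DMSO and fell 3.90-fold when MRK-003 was added to the Jagged1 co-culture. In vector DMSO the level of this probe was 1.74 and 1.09 on replicates 1 and 2, in Jagged1 DMSO 2.71 and 2.37, in vector MRK-003 0.69 and 0.27, and in Jagged1 MRK-003 0.92 and 0.23. Both Jagged1 DMSO arrays lay above all others, and all 4 MRK-003 arrays lay below all 4 DMSO arrays. The share of all probes whose arrays separate in these ways is not given, here or for the genes below. Such separations are therefore only described.

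Under MRK-003 with Jagged1 cells, the first Bmp1 probe fell by 1.96 ± 0.31 (log2, SE, n = 2 per group, limma adjusted p = 0.0396, lower on 2 of 2 slides). The differences on the slides taken alone were -1.79 and -2.14. With the replicate number as a block in the fit the adjusted p was 0.000360. It was the only one of 11 tested member probes that passed in that comparison, in which 1.64% of all 33256 probes passed, so that the members' count is a single probe beside that share. With the block 4 of 11 member probes passed, against 8.74% of all probes. Without the block, the call was lost when any of the 8 arrays was left out, with adjusted p from 0.0535 to 0.270. With the block it was kept each time, with adjusted p from 0.00157 to 0.00728.

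With vector cells MRK-003 gave a difference for the first Bmp1 probe of -0.93 ± 0.31 (adjusted p = 1.00 in limma, 0.133 with the block, -1.04 and -0.81 on the slides), which did not pass. No probe of the array passed in that comparison without the block (0% of probes, 1240 at an unadjusted p under 0.05), and 0.00301% passed with it. The average of both MRK-003 effects was a fall by 1.45 ± 0.22 (adjusted p = 0.0374), where 1 of 11 member probes and 1.26% of all probes passed. Without the block that call was lost when any of the 8 arrays was left out (adjusted p from 0.0505 to 0.157), with local background without a limit (adjusted p = 0.116) and in the authors' value table (adjusted p = 0.0592). With the block 3 of 11 member probes passed there, against 7.93% of all, and the adjusted p of the first Bmp1 probe was 0.000429. This average shares its samples with the single MRK-003 comparisons and is no separate evidence.

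Jagged1 cells in DMSO gave the first Bmp1 probe a level 1.13 ± 0.31 higher than vector cells (2.18-fold, adjusted p = 0.388 in limma), with +0.97 and +1.28 on the slides. Without the block neither it nor any other member probe passed, and 0.147% of all probes did (2418 at an unadjusted p under 0.05). With the block it passed (adjusted p = 0.00570), as did 3 of 11 member probes and 3.04% of all probes, and leaving out vector DMSO replicate 2 ended that call (adjusted p = 0.0653). In the presence of MRK-003 the difference between Jagged1 and vector cells was 0.09 with a 95% interval from -0.65 to 0.83. No probe of the array passed in that comparison (0% with and without the block, 77 at an unadjusted p under 0.05). The interaction, the Jagged1 difference in DMSO minus that in MRK-003, was 1.04 ± 0.44 for this probe (adjusted p = 0.999, 0.0751 with the block). No member passed for the interaction, where 0.00301% of all probes passed without the block and 0.268% with it, so a different Bmp1 response to Jagged1 with and without MRK-003 is not shown.

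The second Bmp1 probe had the same sign as the first in each of these comparisons. Its levels were 1.29 and 0.94 in vector DMSO, 1.94 and 1.62 in Jagged1 DMSO, 0.76 and 0.64 in vector MRK-003, and 0.93 and 0.57 in Jagged1 MRK-003. Its Jagged1 DMSO arrays were again the highest 2 of 8. Without the block it passed in no comparison and came closest under MRK-003 with Jagged1 cells. Under MRK-003 with Jagged1 cells its difference was -1.03 ± 0.19 (adjusted p = 0.0565, 0.00177 with the block). With Jagged1 cells in DMSO its difference was 0.66 ± 0.19 (adjusted p = 0.398, 0.0180 with the block). In the blocked fit its fall under MRK-003 with Jagged1 cells was kept without each array in turn, with adjusted p up to 0.0298. Its difference between tumour cells in DMSO was lost without vector DMSO replicate 1, vector DMSO replicate 2 or Jagged1 DMSO replicate 2 (up to adjusted p = 0.135), and with no limit on local background (0.50, adjusted p = 0.172).

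Among the tested ligands, Bmp4, an osteogenic BMP, was the only one with a difference that passed, with the block only and with the opposite sign to Bmp1. Its level was 0.34 and 1.00 in vector DMSO, -0.40 and 0.13 in Jagged1 DMSO, 0.63 and 0.71 in vector MRK-003, and 0.27 and 0.72 in Jagged1 MRK-003. Both Jagged1 DMSO arrays lay below every other array. On the slides taken alone, Jagged1 cells in DMSO gave -0.75 and -0.87 against vector cells. The 10 spots of the Bmp4 probe on 1 array had an SD from 0.04 to 0.12.

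For Bmp4 the difference between Jagged1 and vector cells in DMSO was -0.81 ± 0.28 (1.75-fold lower, limma adjusted p = 0.547), which passed with the replicate block only (adjusted p = 0.0326). Under MRK-003 with Jagged1 cells Bmp4 differed by 0.63 ± 0.28 (adjusted p = 0.403), which again passed with the block only (adjusted p = 0.0367). Neither blocked call was kept throughout when arrays were left out: the first held in 2 of 8 such fits and the second in 4 of 8, with adjusted p up to 0.201 and 0.231. The first was lost without any of the DMSO arrays and without either Jagged1 MRK-003 array. The second was lost without any of the 4 arrays grown with Jagged1 cells. Both were also lost in the blocked fit with no limit on local background, with differences of -0.81 (adjusted p = 0.120) and 0.57 (adjusted p = 0.1503). MRK-003 with vector cells gave -0.01 with a 95% interval from -0.67 to 0.65, and the slides differed in sign.

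Bmp2, a strong inducer of osteoblast differentiation, was not measured. Its probe has 10 spots per array, and Cy3 was well above background on 0 to 8 of them. It was well above background on 3 of 8 arrays and in no group on both, so it was not tested, and its levels between -0.05 and 0.06 are those of a probe not well above background.

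Bmp6, a BMP also tied to iron sensing in the liver, had a difference in no comparison that passed with or without the block. The level of its first probe, A_52_P413646, ran from -0.43 to -0.11 over the 8 arrays, and the largest of its differences in the 4 comparisons of single groups was 0.16 (95% interval from -0.11 to 0.43) for MRK-003 with vector cells. The second Bmp6 probe, A_52_P468441, whose bases are split over 15144 bases of the gene as an exon-spanning probe's would be, ran from -0.10 to 0.43 and was not well above background in vector DMSO replicate 2. The probes gave opposite signs for Jagged1 in DMSO (0.08 and -0.04) and for MRK-003 with Jagged1 cells (-0.06 and 0.04), all within their errors. They had the same sign for MRK-003 with vector cells (0.16 and 0.25) and for Jagged1 in MRK-003 (-0.14 and -0.25).

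Bmp7, used in the clinic to promote bone formation, stood well below the reference on every array, and no difference of it passed. The 10-spot probe, A_51_P492366, ran from -2.17 to -1.95, and its difference for MRK-003 with Jagged1 cells was -0.10 with a 95% interval from -0.34 to 0.13. The other Bmp7 probe, A_52_P278354, split by slide instead: it was -2.90 to -2.69 on replicate 1 arrays and -2.10 to -1.83 on replicate 2 arrays. That gap shows in its wider intervals without the block (from -1.01 to 1.15 for the same comparison), and with the block it did not pass either. Cy3 of this probe was 42.8 to 76.4 per array, against a local background of 26 to 32. Cy5 was 1268 to 1352 on replicate 1 arrays and 425 to 765 on replicate 2 arrays. The part of these signals in the split was not tested.

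**Figure D2:**
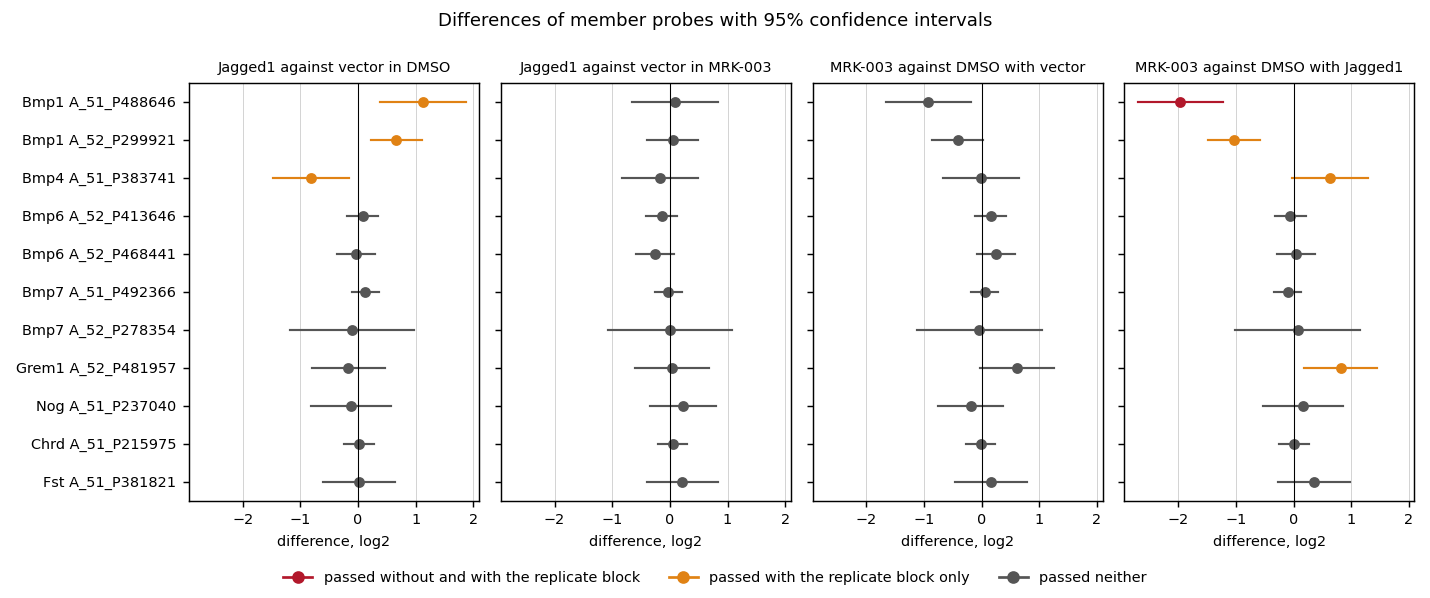
Difference (log2, horizontal axis) with its 95% confidence interval from the fit without the block, for the 11 tested member probes (vertical axis) in 4 comparisons; the key gives which probes passed at an adjusted p under 0.05. Only the first Bmp1 probe, under MRK-003 with Jagged1 cells, passed without the block; the probes of Bmp1, Bmp4 and Grem1 passed in some comparison with it, and no member passed for Jagged1 in MRK-003 or MRK-003 with vector.

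Of the antagonists, Grem1, a cystine-knot protein that binds Bmp2, Bmp4 and Bmp7, had its higher levels on the MRK-003 arrays with either kind of tumour cell. Its level was -2.65 and -3.13 in vector DMSO, -3.08 and -3.03 in Jagged1 DMSO, -2.06 and -2.49 in vector MRK-003, and -1.91 and -2.57 in Jagged1 MRK-003. The 4 MRK-003 arrays all lay above the 4 DMSO arrays, with the closest pair at -2.57 and -2.65, and all were far below the reference RNA. Here too the share of all probes that separate so is not given.

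The average MRK-003 effect on Grem1 was 0.72 ± 0.19 (1.64-fold, limma adjusted p = 0.153), with 0.88 and 0.55 on the slides, and it passed with the block only (adjusted p = 0.0129). With Jagged1 cells the MRK-003 difference was 0.82 ± 0.27 (adjusted p = 0.255, 0.0248 with the block). It was 1.17 on the first slide and 0.46 on the second, and 0.53 to 1.10 in the blocked fit with 1 array left out. With vector cells it was 0.61 ± 0.27 (adjusted p = 1.00, 0.332 with the block). The interaction was -0.20 ± 0.38 (adjusted p = 0.999), so no difference between those effects was shown. In the blocked fit the average effect was lost without vector DMSO replicate 2, vector MRK-003 replicate 1 or vector MRK-003 replicate 2 (adjusted p up to 0.0736). The effect with Jagged1 cells was lost there without either Jagged1 MRK-003 array (adjusted p up to 0.144). Both blocked calls were lost with no limit on local background, where the average effect was 0.54 (adjusted p = 0.291) and that with Jagged1 cells 0.48 (adjusted p = 0.604).

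Nog, which encodes noggin, was fitted on 7 arrays because its spot was flagged as an outlier on Jagged1 DMSO replicate 2. Its level was 0.62 and 1.29 in vector DMSO, 0.83 on the remaining Jagged1 DMSO array, 0.81 and 0.73 in vector MRK-003, and 0.89 and 1.10 in Jagged1 MRK-003. The vector DMSO arrays spanned the levels of every other group, and no difference passed. For Jagged1 in DMSO, where the lone array is assumed to vary as the others do, the difference was -0.13 with a 95% interval from -0.82 to 0.57.

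Chrd, which encodes chordin, the substrate of Bmp1, had the narrowest range of group means among the tested members' brightest probes. Its level ran from -0.20 to -0.01 over all 8 arrays, and those means spanned 0.05. The difference for MRK-003 with Jagged1 cells was 0.01 with a 95% interval from -0.24 to 0.27.

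Fst, which encodes follistatin, stood well above the reference on every array. Its level was 2.83 and 2.22 in vector DMSO, 2.68 and 2.41 in Jagged1 DMSO, 2.85 and 2.51 in vector MRK-003, and 3.16 and 2.65 in Jagged1 MRK-003. In each group the replicate 1 array was the higher, and on each slide the highest array was Jagged1 MRK-003. Its difference for MRK-003 with Jagged1 cells was 0.35 ± 0.26 (adjusted p = 0.655, 0.0925 with the block), which did not pass.

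The rest of the pathway was described by lists of genes with 1 probe each, the brightest in Cy3, beside the members taken the same way. With Jagged1 cells, MRK-003 gave the 8 measured members a median difference of 0.09, with 1 lower and none higher among those that passed, where the median of all probes was 0.01 and 1.64% of them passed. In the same comparison 1 of 13 measured other BMP and GDF ligands (18 listed) fell and none rose (median -0.04). Of 13 other antagonists and extracellular modulators (15 listed), 1 rose and none fell (median -0.06). None of 3 tolloid proteases and their enhancers, of 14 receptors and co-receptors or of 11 Smads and their regulators passed in any comparison without the block. Of 13 BMP response genes 1 fell and none rose (median 0.06). With the block the numbers that rose and fell in that comparison were 0 and 3 for the ligands, 1 and 0 for the antagonists, 1 and 0 for the proteases, 1 and 0 for the receptors, 1 and 0 for the Smads, and 4 and 3 for the response genes, where 8.74% of all probes passed in either direction. For Jagged1 cells in DMSO no gene of these lists passed without the block, and with it 2 ligands and 1 response gene were higher and 1 receptor and 2 response genes lower, where 3.04% of all probes passed. These comparisons share arrays, and the lists were not tested against the other probes.

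The ligand that passed was Bmp8a. Its level was 0.30 and 0.27 in vector DMSO, 0.98 and 1.48 in Jagged1 DMSO, 0.13 and 0.09 in vector MRK-003, and 0.20 and -0.07 in Jagged1 MRK-003. The Jagged1 DMSO arrays lay above all others, and the fall under MRK-003 with Jagged1 cells was by 1.16 ± 0.18 (adjusted p = 0.0355). Bmp8a and Bmp8b are close copies, and which of them the probe binds was not tested.

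The other antagonist that passed was Chrdl1, which encodes a chordin-like BMP antagonist. It was at 1.95 and 1.44 in vector DMSO, 0.41 and 1.06 in Jagged1 DMSO, 2.34 and 2.57 in vector MRK-003, and 3.14 and 2.76 in Jagged1 MRK-003. It rose by 2.22 ± 0.27 under MRK-003 with Jagged1 cells (4.66-fold, adjusted p = 0.0180) and by 1.49 ± 0.19 as the average MRK-003 effect (adjusted p = 0.0222). A second Chrdl1 probe had the same sign but a smaller difference with Jagged1 cells (0.75, adjusted p = 0.140, 0.0154 with the block).

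The response gene that passed was Msx1, a homeobox gene induced by BMPs. Its brightest probe was at -0.09 and -0.04 in vector DMSO, 0.53 and 0.59 in Jagged1 DMSO, -0.13 and -0.18 in vector MRK-003, and -0.09 and -0.28 in Jagged1 MRK-003. It fell by 0.75 ± 0.10 under MRK-003 with Jagged1 cells (adjusted p = 0.0267), and its other probe fell by 1.04 (adjusted p = 0.0192). Unlike for the members, how the calls of Bmp8a, Chrdl1 and Msx1 held under other processing or with 1 array left out is not given.

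The Id genes, chosen here after their values were seen as the classic readout of BMP signalling, had differences of both signs. Under MRK-003 with Jagged1 cells Id1 differed by -0.60 (adjusted p = 0.457, 0.0408 with the block) by its brightest probe and by -0.66 (adjusted p = 0.441, 0.0170 with the block) by the other. Id3 differed by -0.76 (adjusted p = 0.0880, 0.00548 with the block). The brightest Id2 probe differed by 0.97 (adjusted p = 0.567, 0.0143 with the block) and the other Id2 probe by 0.28 (adjusted p = 0.769, 0.121 with the block). Id4 differed by 1.00 by its brightest probe (adjusted p = 0.155, 0.05004 with the block, just above the threshold) and by 1.01 by the other (adjusted p = 0.288, 0.0448 with the block). As the average MRK-003 effect both Id4 probes passed with the block only (adjusted p = 0.0187 and 0.0219). Alpl, the alkaline phosphatase of mineralizing osteoblasts and named on the same footing, differed by 1.39 (adjusted p = 0.148, 0.000988 with the block).

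In the lists where none passed, the genes with the smallest p were as follows. Of the proteases and enhancers, Pcolce2, which enhances the procollagen cleavage done by Bmp1, had an average MRK-003 difference of 0.78 ± 0.14 (adjusted p = 0.0606, 0.00993 with the block). Its relative Pcolce was saturated in Cy3 on all 4 replicate 1 arrays and 1 replicate 2 array, so no difference is given for it. Of the receptors, Bambi, a pseudoreceptor that dampens BMP and TGF-beta signals, differed by 0.67 ± 0.15 under MRK-003 with Jagged1 cells (adjusted p = 0.111, 0.00781 with the block). Rgma, a BMP co-receptor, differed by -0.35 between Jagged1 and vector cells in DMSO (adjusted p = 0.504). Of the Smad regulators, Ski, a corepressor of Smads, had an average MRK-003 difference of -0.18 (adjusted p = 0.302), and Tob1, which restrains BMP signals in osteoblasts, differed by 0.48 under MRK-003 with Jagged1 cells (adjusted p = 0.314).

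**Figure D3:**
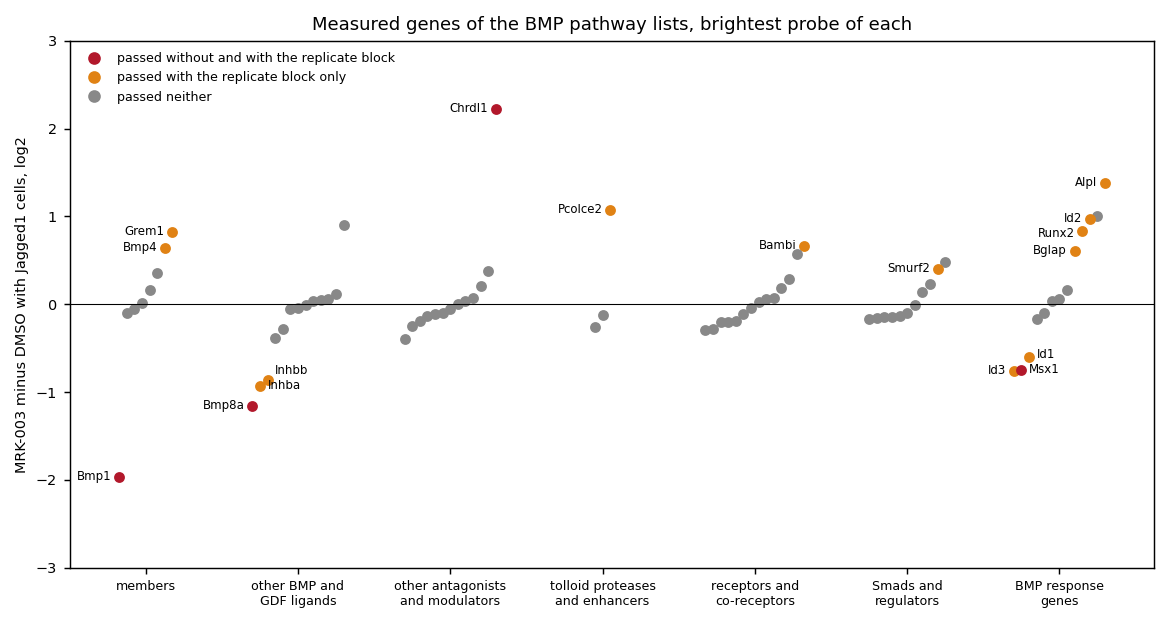
Difference under MRK-003 with Jagged1 cells (log2, vertical axis) of each measured gene in the members and the 6 pathway lists (horizontal axis), 1 point per gene by its brightest probe; the key gives which genes passed. Bmp1, Bmp8a, Chrdl1 and Msx1 passed without the block, and of these 4 only Chrdl1 lies above 0; the point of Pcolce rests on saturated spots.

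The genes whose pattern over the 8 arrays was most like that of the first Bmp1 probe, which had the widest range of group means among the members' brightest probes (2.06), were searched among 23413 genes after each slide's mean was taken off. They were Traf4, an adaptor of the TNF receptor-associated factor family (Pearson r = 0.999), Vash2, a tubulin carboxypeptidase of the vasohibin family (r = 0.998), and Fam110b (r = 0.997). These correlations describe the arrays, which share 2 slides and 4 groups, and were picked as the highest of many. Because the genes were picked for this likeness, their peaks and the tests given next are no separate evidence. Like Bmp1, all 3 were highest in Jagged1 DMSO on both slides and lower in the MRK-003 groups than in the DMSO groups. The size differed: under MRK-003 with Jagged1 cells Traf4 fell by 0.92 ± 0.09 (adjusted p = 0.0128), Vash2 by 0.67 ± 0.11 (adjusted p = 0.0466) and Fam110b by 1.51 ± 0.19 (adjusted p = 0.0210), where Bmp1 fell by 1.96.

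**Figure D4:**
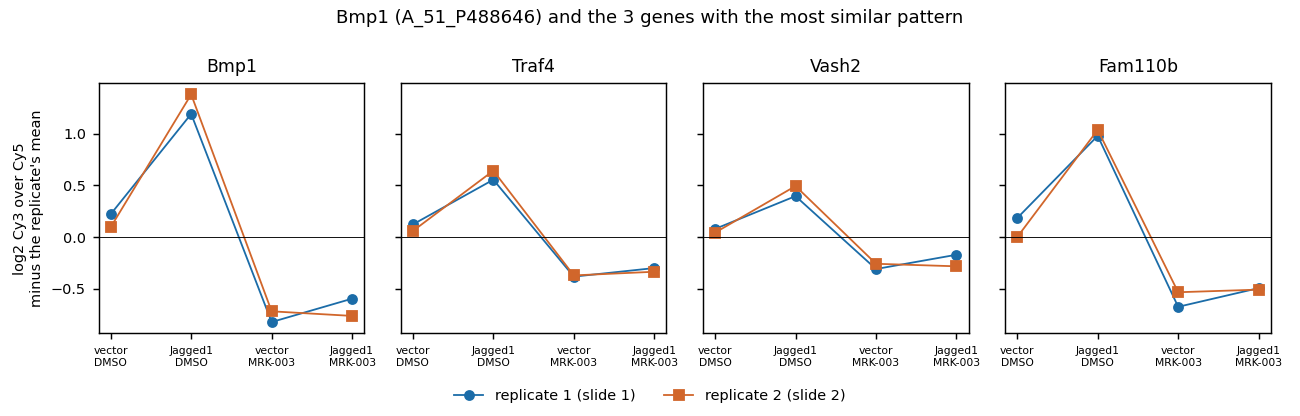
Level (log2 Cy3 over Cy5) minus the mean of the 4 arrays of the same replicate number (vertical axis) in the 4 groups (horizontal axis) for the first Bmp1 probe, Traf4, Vash2 and Fam110b; circles are replicate 1 and squares replicate 2. All 4 genes peak in Jagged1 DMSO, at 1.19 and 1.38 for Bmp1 and 0.40 and 0.49 for Vash2.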

How the data were processed

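The input was 175 ng of total RNA per labelling, per the labels' protocols, and no dye was swapped: the co-culture was Cy3 and the reference Cy5 throughout. The deposited intensity values are spot mean signals and local background medians from Agilent Feature Extraction 9.5.3.1, per the file headers, which also give flags and probe positions on mm7. The value table that the authors deposited holds log2 values, which equalled log2 of processed Cy3 over processed Cy5 signal plus a constant per array (100% of rows within 0.02), with column medians of 0.12 and 0.20 (vector DMSO), 0.16 and 0.18 (Jagged1 DMSO), 0.12 and 0.17 (vector MRK-003), and 0.18 and 0.17 (Jagged1 MRK-003).

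Background was corrected with normexp (offset 50), with each spot's local background limited to the array's median plus 3 median absolute deviations. This limit was set because earlier results of these data reported that unlimited local background distorted some arrays. Single spots reached 32904 in Cy3 against a median near 30.5. Loess within each array followed, control spots (1639 of 45018) having no weight. Outlier-flagged spots were left out and spots of a probe averaged. Kept were probes with at least 50% of spots well above background in Cy3 on both arrays of a group (7917 probes left out as dim, 1 for missing arrays), which left 33256. Names came from matched RefSeq accessions for 22951 probes, whether or not the name changed, and from the files for 18223.

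limma 3.58.1 in R 4.3.3 fitted 4 group means to 8 arrays for 6 comparisons, with Benjamini-Hochberg adjustment over all kept probes and a threshold of 0.05; errors are standard errors. The offset makes differences of dim probes too small. The fit was tested on simulated data. Replicate numbers share a slide, per the file headers, and their deviations correlated in all 6 pairs of groups (r from 0.357 to 0.848, 33060 probes), so the numbers pair the samples and blocked values stand beside results they change. With 2 arrays per group, precision is limited by the number of arrays.

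The members, lists, tests and limit on local background were chosen with earlier results of these data known. Named were all members, list genes that passed (up to 6 per list and comparison), the 2 smallest p in lists where none passed, and the 3 genes most like the member with the widest range. Alternatives were local background without a limit, the value table, median centring, Cy3 alone, no filter on dim probes, 1 probe per gene, the block, and leaving out each array. A list gene and a probe sequence are not reported here.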

Additional observations from a re-analysis of the deposited data

How the results depend on the processing

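The count of member probes that passed was 0, 0, 0, 1, 0 and 1 in the order Jagged1 in DMSO, Jagged1 in MRK-003, MRK-003 with vector, MRK-003 with Jagged1, interaction and average MRK-003 effect. For MRK-003 with Jagged1 and for the average effect it became 0 with local background without a limit and with the authors' value table, 2 with Cy3 alone, and 0 whichever array was left out. With the replicate block it was 3 for Jagged1 in DMSO, 4 for MRK-003 with Jagged1 and 3 for the average effect, and with the block and no limit on local background 1, 2 and 2, all of them Bmp1 probes, so that the blocked calls of Bmp4 and Grem1 and that of the second Bmp1 probe for Jagged1 in DMSO were lost. Leaving out 1 array within the blocked fit, an alternative chosen after seeing the data, gave 0 to 3, 2 to 4 and 2 to 3. The other 3 comparisons stayed at 0 throughout. Over all probes, the count for MRK-003 with Jagged1 ran from 61 to 2906 over the settings and from 10 to 380 with 1 array left out, against 547; for Jagged1 in DMSO it ran from 3 to 1012 and from 0 to 15, against 49; for the average effect from 35 to 2638 and from 11 to 153, against 420; for the interaction from 0 to 89 and from 0 to 1, against 1. Of 1032 member values under the settings above without the one chosen after seeing the data, 880 kept their direction and side of the threshold, 20 lost a call, 13 gained one, none of the called values changed sign, and 119 uncalled values changed sign. The first Bmp1 probe fell under MRK-003 with Jagged1 by 1.92 with local background without a limit (adjusted p = 0.136) and by 1.92 in the authors' value table (adjusted p = 0.0610). The cause of these lost calls was not tested. The median difference of all probes was -0.02 where it lay farthest from 0 in the settings with all 8 arrays. Signal over background limits Bmp2, Bmp6 and Bmp7 most.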
